A study of Mus musculus with 54 samples.

Results

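Alveolar and adventitial fibroblast markers were followed as 9 genes, Inmt, Npnt, Tcf21, Ces1d, Scara5, Pi16, Dpt, Clec3b and Gsn, taken by symbol, a choice made with earlier results of these data known. They are 9 of the 26264 genes listed for cultured fibroblasts and of the 32534, 34652 and 35003 genes listed for the lungs of the water, diet and BT2 experiments, and all 9 passed the filter on low values in each of the 4 tables. Alveolar fibroblasts lie beside the gas-exchange epithelium, store lipid and supply the epithelium with matrix and growth factors. Adventitial fibroblasts form the loose sleeve around airways and vessels. In fibrosis alveolar fibroblasts are known to give rise to matrix-producing fibroblasts that lose many resting markers.

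The study asked what the branched-chain amino acids leucine, isoleucine and valine (BCAA) do in pulmonary fibrosis, and RNA was sequenced from 54 samples in 17 groups, all of wild-type genotype. The 8 culture groups, of 3 libraries each, were primary lung fibroblasts from mice of 6 to 8 weeks grown in 5% O2 and 5% CO2. They spent 24 h in complete medium, in BCAA-free medium, or in BCAA-free medium to which BCAA or their keto acids (BCKA) had been added back, followed by 48 h under PBS or under TGF-β1 at 20 ng/mL, the cytokine that drives fibroblasts to make scar matrix. The 9 lung groups came from male C57BL/6 mice of 10 to 12 weeks, and each of the 3 experiments had its own PBS mice and its own bleomycin mice (the PBS mice of the BT2 experiment are titled as DMSO mice too), bleomycin being a drug that injures the alveoli and leaves a scar. In the water experiment bleomycin was given at 1.25 mg/kg, the treated mice drank 3 mM BCAA from 7 days before it, and lungs were taken on day 14 as 3 lungs a group. In the diet experiment the dose was again 1.25 mg/kg, food without BCAA was given to the treated mice from day 7 on for 14 days, and lungs were taken on day 21 as 4 lungs a group. In the BT2 experiment the dose was 3.5 mg/kg, and from day 3 the bleomycin mice received for 11 days either 10% DMSO or BT2 at 20 mg/kg, an inhibitor of the kinase that holds the BCKA dehydrogenase inactive, with lungs taken on day 14 as 3 lungs a group. The labels do not say whether the 3 libraries of a culture group were separate isolations, so p-values there measure the spread between these libraries, which may be technical.

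Levels are in TPM (transcript abundance scaled by transcript length and library total), so the read depth behind them is unknown. Differences are in log2(TPM + 1), which understates the change of genes near 0, with limma's standard error (SE), and a gene is called higher or lower where its adjusted p over all tested genes is under 0.05. The cultures carried fibroblast RNA, with the 11 pan-fibroblast markers summing to between 8450 and 30900 TPM. Markers of other cells were lower but not all absent. Alveolar type 2 markers summed to 71.2 to 137 TPM, and 5 of 8 stayed under 1 TPM in every library. Endothelial ones summed to 16.8 to 45.2 TPM, with 5 of 10 under 1 TPM. Sums were 92.6 to 397 TPM for alveolar type 1, 445 to 1180 TPM for macrophage and 560 to 1200 TPM for pericyte and smooth muscle markers. Mesothelial markers summed to 15.2 to 113 TPM and lymphocyte ones to at most 0.622 TPM. The lungs carried lung epithelial RNA in every group, and cardiac muscle markers were also present. In the cultures, replicate 1 of BCAA-free medium with TGF-β1 stood apart, with a root mean square distance from its group mean of 0.451 log2 against a median of 0.123, and so did replicate 3 of the BCAA-free diet lungs, at 0.812 against 0.342, with 17554 genes above 0. The PBS lungs of the diet experiment stood apart as a group, with 12.2% to 17.3% of TPM from mitochondrial genes against 4.41% to 5.29% in the bleomycin lungs on normal diet. Replicate 3 of the BCAA-free diet lungs had a high share too, 16.5%, and the lungs of the water experiment had 6.85% to 14.4%.

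Promoter sequences were at hand for 6 of the 9 genes in RefSeq's GRCm38.p6 annotation, and those of Inmt, Dpt and Gsn are shown because each holds the E-box CAGCTG, a site type bound by basic helix-loop-helix proteins such as TCF21. Each run is the 250 bases before the annotated start, read 5′ to 3′ along the gene's strand, with every match to a searched motif in capitals. The first of 3 Gsn promoters is given.
Inmt, chr6:55174991-55175240, minus strand: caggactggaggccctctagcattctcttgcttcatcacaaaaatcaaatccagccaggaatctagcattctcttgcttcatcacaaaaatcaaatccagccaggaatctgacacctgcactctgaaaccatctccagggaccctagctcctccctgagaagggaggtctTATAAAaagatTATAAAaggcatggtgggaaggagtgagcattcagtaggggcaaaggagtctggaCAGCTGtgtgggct
Dpt, chr1:164796413-164796662, plus strand: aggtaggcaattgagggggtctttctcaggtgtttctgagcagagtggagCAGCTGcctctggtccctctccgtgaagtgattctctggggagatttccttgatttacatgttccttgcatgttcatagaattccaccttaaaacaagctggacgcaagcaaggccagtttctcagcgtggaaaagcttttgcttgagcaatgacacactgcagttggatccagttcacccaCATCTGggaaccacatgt
Gsn, chr2:35256109-35256358, plus strand: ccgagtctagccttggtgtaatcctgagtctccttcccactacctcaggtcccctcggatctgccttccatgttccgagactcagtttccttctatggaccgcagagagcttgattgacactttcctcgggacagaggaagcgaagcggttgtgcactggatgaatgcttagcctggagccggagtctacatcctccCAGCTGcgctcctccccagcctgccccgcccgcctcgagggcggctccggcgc
The motif CAGCTG began 14 bases before the start in Inmt, 200 bases before it in Dpt and 53 bases before it in this Gsn promoter, and a second Gsn promoter held it 216 bases before its start. It was thus in 4 of the 9 promoters of these genes against 13% of 32851 promoters. CATCTG, another E-box, was in 2 of the 9 (Dpt and the third Gsn promoter) against 14.4%. TATAAA was in 1 of the 9, Inmt, at 69 and 80 bases before the start, against 12.4%. The SMAD motifs CAGACA (17.1% of promoters) and GTCTAGAC (0.167%) and the amino acid response motif TGATGNAAT (0.816%) were in none of the 9. Both strands were searched, and CAGCTG reads the same on each. The Inmt run also held a 46-base direct repeat whose copies began 235 and 189 bases before the start. Direct repeats of at least 30 bases were found in 174 promoters, or 0.53%. These matches describe the sequence and show no binding.

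The order of the 9 genes differed between dish and tissue. Gsn, which encodes the actin-severing protein gelsolin, led in resting cultures (complete medium with PBS) at 3420 ± 184 TPM (SD, n = 3) and was first or second in the PBS lungs of each experiment. Scara5, a ferritin receptor, was second in the resting cultures at 435 ± 5.19 TPM (SD, n = 3), the 97.4th percentile of tested genes there. In PBS lungs it was ninth of the 9, with means of 3.06, 3.16 and 4.21 TPM in the water, diet and BT2 experiments. Inmt, an N-methyltransferase of indoleamines, ran the other way, with 69.4 ± 6.53 TPM (SD, n = 3) in resting cultures and 1542, 432 and 3346 TPM in the PBS lungs of the water, diet and BT2 experiments. Pi16, a secreted peptidase inhibitor that marks adventitial fibroblasts, was near the floor in resting cultures at 1.68 ± 0.553 TPM (SD, n = 3). The tables were normalized separately, so these levels are set side by side without a test.

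TGF-β1 lowered nearly the whole set in complete medium. Of the 9 genes 8 fell and none rose, where 36.4% of all 13084 tested genes fell and 48.6% were called either way. The median difference of the 9 was -3.47 log2 against -0.20 over all tested genes.

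Among the genes tied to alveolar fibroblasts, Inmt read 63.4, 68.6 and 76.4 TPM in the PBS libraries and 2.03, 2.79 and 2.85 TPM with TGF-β1. The groups lay far apart, a 27.2-fold fall in mean TPM and a difference of -4.31 log2 (SE 0.146, adjusted p = 4.05e-16). Ces1d, a carboxylesterase that acts on lipid esters, read 13.3, 12.2 and 14.0 TPM with PBS and 0.193, 0.344 and 0.180 TPM with TGF-β1. All TGF-β1 libraries were thus under 1 TPM, and Ces1d fell by 3.52 log2 (SE 0.121, adjusted p = 5.23e-16). Tcf21, a transcription factor of lung mesenchyme and lipid-laden fibroblasts, read 50.9, 47.6 and 50.7 TPM with PBS and 25.0, 30.6 and 24.8 TPM with TGF-β1. Its groups did not overlap, but the fall was smaller, 1.86-fold (-0.88 log2, SE 0.092, adjusted p = 6.68e-08). Npnt, which encodes the matrix protein nephronectin, a ligand of integrin α8β1, was the exception. Its libraries read 76.8, 77.0 and 69.5 TPM with PBS and 81.1, 58.1 and 81.0 TPM with TGF-β1, so the ranges overlapped and no difference was called (-0.03 log2, SE 0.124, adjusted p = 0.84).

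Among the genes tied to adventitial fibroblasts, Scara5 read 432, 431 and 441 TPM with PBS and 27.1, 18.5 and 30.5 TPM with TGF-β1. This was a 17.2-fold fall (-4.08 log2, SE 0.211, adjusted p = 5.55e-13). Dpt, which encodes dermatopontin, a small matrix protein that binds collagen fibrils, read 30.6, 29.5 and 32.1 TPM with PBS and 1.79, 1.98 and 1.84 TPM with TGF-β1. It fell 16.4-fold (-3.47 log2, SE 0.125, adjusted p = 1.06e-15). Clec3b, which encodes the plasminogen-binding protein tetranectin, read 13.8, 13.2 and 13.4 TPM with PBS and 0.145, 0 and 0.180 TPM with TGF-β1, a difference of -3.71 log2 (adjusted p = 9.94e-15) with no fold given because 1 library is listed at 0. Pi16 read 1.04, 2.06 and 1.93 TPM with PBS and 0.774, 0.730 and 0.523 TPM with TGF-β1, and fell by 0.66 log2 from its low level (adjusted p = 0.00417). Gsn, which is also made by many other cell types, read 3325, 3304 and 3633 TPM with PBS and 854, 937 and 911 TPM with TGF-β1. It fell 3.80-fold (-1.92 log2, SE 0.101, adjusted p = 6.82e-13) and still stood at the 99.0th percentile of tested genes.

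**Figure D1:**
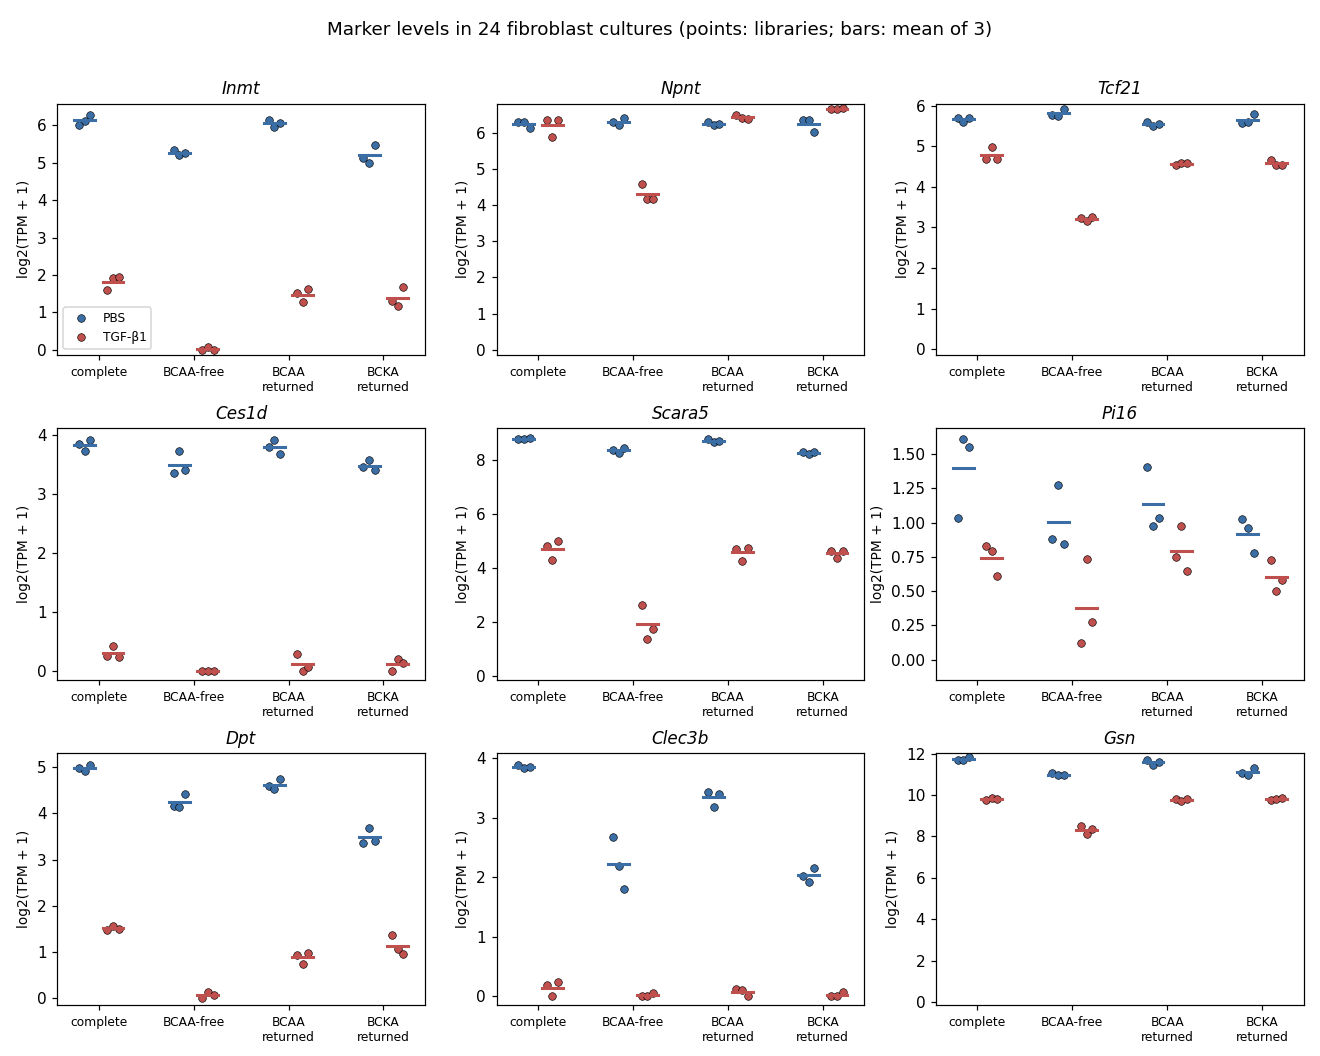
Levels of the 9 genes in 24 cultures as log2(TPM + 1) on the y axis against the medium on the x axis, with points for libraries, bars for means of 3, and colours for PBS and TGF-β1. Npnt is lowest in BCAA-free medium with TGF-β1 (mean 19 TPM) and higher with TGF-β1 than with PBS where BCKA was returned, while Inmt, Scara5, Dpt, Clec3b and Ces1d lie far lower with TGF-β1 in every medium.

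Without TGF-β1, leaving BCAA out of the medium moved few genes in all, and 4 of the 9 markers were among them. Only 0.91% of tested genes were called, 0.336% lower and 0.573% higher, and the 4 markers, Inmt, Dpt, Clec3b and Gsn, were all lower. The median of the 9 was -0.42 log2 against -0.03 over all tested genes. Clec3b showed the largest difference, with 5.42, 3.57 and 2.46 TPM in BCAA-free medium, below the lowest complete-medium library, a 3.53-fold fall (-1.63 log2, SE 0.153, adjusted p = 5.96e-06). Inmt fell 1.84-fold, to 39.7, 35.9 and 37.7 TPM (-0.86 log2, adjusted p = 0.00377). Dpt fell 1.71-fold, to 16.8, 16.7 and 20.4 TPM (-0.75 log2, adjusted p = 0.00334). Gsn fell 1.68-fold, to 2134, 1989 and 1982 TPM (-0.75 log2, adjusted p = 0.000607). Scara5 was also below its complete-medium range, at 328, 303 and 342 TPM, but was not called (-0.42 log2, adjusted p = 0.684). A limma fit of only the groups compared did call Scara5 lower (adjusted p = 0.0157). Npnt, Tcf21, Ces1d and Pi16 were not called. With a pseudocount of 0.1 in place of 1 the calls on Inmt (adjusted p = 0.063) and Dpt (adjusted p = 0.144) were lost.

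Returning BCAA to resting cells raised 3 of the 4, where 0.26% of tested genes were called, 0.122% higher and 0.138% lower. Clec3b came back to 9.83, 8.10 and 9.53 TPM, a 2.40-fold rise over BCAA-free medium (1.12 log2, SE 0.153, adjusted p = 0.00128). Inmt came back to 69.8, 61.4 and 65.5 TPM, overlapping the complete-medium libraries, a rise of 0.78 log2 (adjusted p = 0.0202). Gsn reached 3294, 2829 and 3085 TPM, a rise of 0.59 log2 (adjusted p = 0.0138). Dpt read 23.3, 22.0 and 25.8 TPM, above every BCAA-free library, but was not called (0.39 log2, adjusted p = 0.359). This comparison was weak: leaving out 1 library in turn left 1 or 2 of the 3 calls, and a pseudocount of 0.1 left 1. Clec3b lost its call with that pseudocount (adjusted p = 0.272) and when only the groups compared were fitted by limma (adjusted p = 0.0569).

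Returning the keto acids to resting cells called 1 of the 9, downwards, where 0.665% of tested genes were called, 0.268% lower and 0.397% higher. Dpt read 9.30, 11.9 and 9.66 TPM with BCKA, below the BCAA-free libraries, a 1.75-fold fall (-0.75 log2, SE 0.125, adjusted p = 0.00269) that was lost with a pseudocount of 0.1 (adjusted p = 0.137). Inmt, at 33.7, 30.9 and 43.8 TPM, and Clec3b, at 3.05, 2.78 and 3.47 TPM, overlapped the BCAA-free libraries. The direct comparison of BCKA with BCAA in resting cells, added after the levels were seen, called 4 of the 9, all lower with BCKA, where 0.65% of tested genes were called, 0.275% lower and 0.375% higher. Clec3b was lower by 2.95-fold (-1.31 log2, adjusted p = 3.28e-05), Dpt by 2.31-fold (-1.14 log2, adjusted p = 1.63e-05), Inmt by 1.81-fold (-0.86 log2, adjusted p = 0.00269) and Gsn by 1.37-fold (-0.46 log2, adjusted p = 0.0285). With a pseudocount of 0.1 only 2 were called. Scara5, not called in the main fit, was called lower when only the groups compared were fitted (-0.44 log2, adjusted p = 0.000731). The Gsn call was lost with median centring (adjusted p = 0.107), without the filter (adjusted p = 0.0504) and without any of 4 of the 6 libraries (adjusted p up to 0.25). The comparisons of BCAA-free medium with complete medium and with either supplement share the BCAA-free libraries.

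TGF-β1 in BCAA-free medium lowered all 9 genes, where 34.9% of tested genes fell and 64.1% were called either way. Inmt was listed at 0, 0.0471 and 0 TPM, Dpt at 0, 0.0942 and 0.0424 TPM, Clec3b at 0, 0 and 0.0424 TPM, and Ces1d at 0 in all 3 libraries. Scara5 read 5.22, 1.6 and 2.33 TPM, a 106-fold fall from BCAA-free medium with PBS (-6.43 log2, SE 0.211, adjusted p = 4.47e-17). Npnt, level in complete medium, read 23.0, 17.0 and 17.0 TPM here, a 4.10-fold fall (-1.99 log2, SE 0.124, adjusted p = 4.15e-12). Tcf21 read 8.32, 7.92 and 8.61 TPM, a 6.68-fold fall (-2.60 log2, SE 0.092, adjusted p = 1.55e-16), and Gsn read 361, 278 and 325 TPM, a 6.33-fold fall (-2.67 log2, adjusted p = 5.40e-16). Replicate 1, the library that stood apart, had the highest Npnt, Scara5 and Gsn of the 3. Leaving out any 1 library of these groups left all 9 calls in place.

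The difference between the 2 TGF-β1 responses was tested as an interaction, and 6 of the 9 genes responded more strongly downwards in BCAA-free medium while 1 had a difference of the opposite sign, where 18.4% of tested genes had a lower and 29.2% a higher response (47.6% called). Scara5 differed by -2.35 log2 (SE 0.298, adjusted p = 1.40e-06), Npnt by -1.96 log2 (SE 0.175, adjusted p = 8.31e-09) and Tcf21 by -1.72 log2 (SE 0.130, adjusted p = 5.57e-10). Differences were also called for Inmt (-0.94 log2), Gsn (-0.74 log2) and Dpt (-0.71 log2). The order of sizes depends on the pseudocount: with 0.1 in place of 1 Inmt (-3.66 log2) and Dpt (-3.03 log2), both near 0 TPM in BCAA-free medium with TGF-β1, differed more than Scara5 (-2.73 log2), Npnt (-2.01 log2) and Tcf21 (-1.83 log2). For Clec3b the difference was 1.51 log2 (adjusted p = 6.84e-06): its 6 TGF-β1 libraries lay at or near 0 TPM in both media, whereas its PBS mean was 13.5 TPM in complete and 3.82 TPM in BCAA-free medium, and with a pseudocount of 0.1 the call was lost (1.11 log2, adjusted p = 0.0719). Ces1d, also near 0 with TGF-β1 in both media, was not called (0.02 log2) but was called with the opposite sign with a pseudocount of 0.1 (-1.37 log2, adjusted p = 0.0228).

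Set against complete medium with TGF-β1, the BCAA-free cells with TGF-β1 were lower for 7 of the 9 genes, where 24.8% of tested genes were lower, 35.5% were higher and 60.3% were called. Scara5 was 8.30-fold lower, Npnt 3.86-fold, Tcf21 3.23-fold and Gsn 2.80-fold lower, and Inmt differed by -1.80 log2 and Dpt by -1.46 log2. Ces1d was called at -0.31 log2 (adjusted p = 0.0337), a call lost without any of 4 of the 6 libraries, and Pi16 and Clec3b were not called. Pi16 (-0.36 log2, adjusted p = 0.081) was called lower with a pseudocount of 0.1 (-1.11 log2, adjusted p = 0.0187), with median centring (-0.47 log2, adjusted p = 0.0202) and without replicate 2 of BCAA-free medium with TGF-β1 (-0.54 log2, adjusted p = 0.015).

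Under TGF-β1, BCAA and BCKA each raised the same 6 genes, Inmt, Npnt, Tcf21, Scara5, Dpt and Gsn, over BCAA-free medium. With BCAA 25% of tested genes rose and 33.3% fell (58.3% called), and with BCKA 25.1% rose and 33.4% fell (58.4% called). Both comparisons use the same BCAA-free TGF-β1 libraries, replicate 1 of which stood apart, so they are not independent. Npnt read 88.9, 84.1 and 83.0 TPM with BCAA and 100, 99.2 and 102 TPM with BCKA, which were 4.49-fold and 5.27-fold rises. Scara5 read 25.3, 18.3 and 25.6 TPM with BCAA and 23.9, 19.5 and 23.4 TPM with BCKA. Tcf21 read 22.4, 23.0 and 22.9 TPM with BCAA and 24.4, 22.3 and 22.0 TPM with BCKA. These Scara5 and Tcf21 levels were 7.55-fold and 2.75-fold above BCAA-free medium with BCAA, and 7.30-fold and 2.77-fold above it with BCKA. Inmt, at 1.41 to 2.10 TPM with BCAA and 1.25 to 2.20 TPM with BCKA, and Dpt, at 0.664 to 0.973 TPM and 0.948 to 1.58 TPM, came back only to the low levels seen with TGF-β1 in complete medium or below. Ces1d and Clec3b stayed under 1 TPM and were not called with either supplement. Pi16 was not called with BCAA (0.41 log2, adjusted p = 0.0501) but was with a pseudocount of 0.1 (1.21 log2, adjusted p = 0.0116), with median centring (0.49 log2, adjusted p = 0.0158) with the replicate number as a block (adjusted p = 0.0451), and without BCAA-free TGF-β1 replicate 2 (adjusted p = 0.00891) or replicate 3 with BCAA (adjusted p = 0.0464). The direct comparison of BCKA with BCAA under TGF-β1 called none of the 9 by limma, where 0.268% of tested genes were called, 0.222% higher and 0.0459% lower, and no member had an unadjusted p under 0.05. The nearest were Dpt (0.25 log2, SE 0.125, unadjusted p = 0.0579) and Npnt (0.23 log2, SE 0.124, unadjusted p = 0.0768), and the Npnt libraries with BCKA all lay above those with BCAA.

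TGF-β1 was also compared with PBS within each supplemented medium. With BCAA returned, 7 of the 9 fell and none rose (33.2% of tested genes fell, 44.8% called), and with BCKA returned 7 fell and 1 rose (34.3% fell, 45.8% called). The gene that rose was Npnt, from 79.8, 80.3 and 64.2 TPM to the values of 99.2 to 102 TPM above (0.42 log2, SE 0.124, adjusted p = 0.00762). Without PBS replicate 3 of that medium, the lowest of the 3, the call was lost (0.32 log2, adjusted p = 0.0584). Npnt with BCAA returned, not called in the main fit, was called higher when only the groups compared were fitted (0.19 log2, adjusted p = 0.00765). Pi16 was not called in either medium. The median of the 9 was -3.26 log2 with BCAA and -2.01 log2 with BCKA, and the difference of these responses from that in complete medium was not tested.

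Other marker genes of the same fibroblast types were counted in the same fits. Of 22 other alveolar fibroblast markers 18 were tested, and with TGF-β1 in complete medium 12 fell and 4 rose, at a median of -1.37 log2. In BCAA-free against complete medium under TGF-β1, 15 fell and 3 rose, at a median of -1.29 log2 against 0.10 for all tested genes, and with BCAA returned 15 rose and 3 fell. Vegfd, a growth factor for lymphatic vessels and the most abundant of the list, averaged 1965 TPM at rest, 954 TPM with TGF-β1 in complete medium and 35.8 TPM with TGF-β1 in BCAA-free medium. Mfap4, a microfibril-associated protein, went the other way with TGF-β1 in complete medium, from 156 to 509 TPM (1.70 log2), and averaged 88.5 TPM with TGF-β1 in BCAA-free medium. Plin2, a lipid droplet coat protein, was higher in BCAA-free than in complete medium under TGF-β1 (1.25 log2, adjusted p = 2.01e-09). Of 22 other adventitial markers, 14 fell and 6 rose with TGF-β1 in complete medium. Efemp1, a fibulin of elastic fibres, averaged 1116 TPM at rest, 129 TPM with TGF-β1 and 18.2 TPM with TGF-β1 in BCAA-free medium, whereas Fbn1, the microfibril protein fibrillin, rose with TGF-β1 in complete medium (0.99 log2, adjusted p = 3.96e-05). Among 14 transcription factors of lung fibroblasts, Tcf21 and its E-protein partners included, 10 fell and none rose with TGF-β1 in complete medium. In BCAA-free against complete medium under TGF-β1, 6 of the 14 fell and 5 rose: Prrx1 was lower (-1.06 log2, adjusted p = 1.17e-05) and Tcf4, an E-protein, was higher (0.34 log2, adjusted p = 0.0112).

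The genes whose culture profiles lay nearest to each member's were found by the root mean square difference of centred log2(TPM + 1) over the 24 libraries. Nearest to Inmt was Ly6c1 (0.24 log2), a surface antigen that averaged 60.1 TPM at rest, 2.73 TPM with TGF-β1 and 0.0230 TPM with TGF-β1 in BCAA-free medium. Nearest to Npnt was Dkk3 (0.163 log2), which averaged 431 TPM at rest, 420 TPM with TGF-β1 and 88.1 TPM with TGF-β1 in BCAA-free medium. Timp2 lay nearest to Tcf21 (0.166 log2), Mettl7a1 to Gsn (0.186 log2), Itih3 to Ces1d (0.209 log2), Ifi205 to Dpt (0.286 log2), Aox3 to Scara5 (0.325 log2) and Hpca to Clec3b (0.457 log2). Pi16 varied too little for this comparison.

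In whole lung, bleomycin raised Dpt in all 3 experiments while most other members fell or were not called. A lower level in whole lung cannot be told apart as fewer cells of a type or less RNA per cell. In the water experiment bleomycin lowered 4 of the 9 genes and raised 1, where 7.08% of 17209 tested genes fell, 14.8% rose and 21.9% were called. Inmt read 1430, 1651 and 1544 TPM in PBS lungs and 451, 662 and 546 TPM in bleomycin lungs. It fell 2.79-fold (-1.49 log2, SE 0.176, adjusted p = 0.000273). Gsn, at 1633, 1863 and 2034 TPM in PBS lungs, fell to 803, 1158 and 1180 TPM (-0.83 log2, adjusted p = 0.00836). Ces1d, at 791, 626 and 694 TPM, fell to 401, 472 and 472 TPM (-0.65 log2, adjusted p = 0.00822). Pi16 fell from a mean of 9.15 to 5.54 TPM (-0.64 log2, adjusted p = 0.0402), a call lost without any of 5 of the 6 lungs. Dpt rose from 123, 150 and 201 TPM to 256, 417 and 271 TPM (0.98 log2, SE 0.237, adjusted p = 0.0141), a call lost without PBS replicate 1 (adjusted p = 0.0571). Npnt, Tcf21, Scara5 and Clec3b were not called.

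BCAA in the drinking water left every member at a lower mean than bleomycin alone, but only 1 of the 9 was called, where 1.2% of tested genes were called, 0.331% lower and 0.872% higher. Tcf21 read 45.7, 45.0 and 47.2 TPM with bleomycin and 25.4, 20.8 and 22.9 TPM with bleomycin and BCAA. It fell 2.00-fold (-0.97 log2, SE 0.202, adjusted p = 0.0487), and the call was lost without any of 5 of the 6 lungs. Inmt, Npnt and Ces1d had ranges that did not overlap either, with differences of -0.84, -0.81 and -0.63 log2 and adjusted p of 0.0503, 0.0639 and 0.061. The share of all tested genes without overlap was not counted. Inmt read 269, 372 and 285 TPM, Npnt read 126, 168 and 189 TPM against 283, 288 and 265 TPM, and Ces1d read 262, 301 and 305 TPM. The median of the 9 was -0.44 log2 against 0.03 over all tested genes. Of 22 other alveolar fibroblast markers none was called in this comparison (median -0.10 log2), and of 21 tested adventitial ones 3 rose and 1 fell. Alveolar type 2 markers summed to 34700 to 48400 TPM in bleomycin lungs and 28200 to 33800 TPM with BCAA, and 2 of the 8 fell. Pan-fibroblast markers summed to 1520 to 2010 TPM with bleomycin and 2550 to 2910 TPM with BCAA, airway epithelial ones to 51100 to 111000 and 23000 to 44200 TPM, and cardiac muscle ones to 79.8 to 181 and 42.5 to 57.2 TPM. Of 15 fibrotic fibroblast markers 6 rose and none fell. The part of these changes in the result was not tested.

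Against PBS lungs, bleomycin with BCAA water lowered 6 of the 9 and raised Dpt, where 11.1% of tested genes fell, 22.7% rose and 33.8% were called. Inmt was 4.99-fold, Ces1d 2.43-fold and Gsn 2.41-fold lower, and Tcf21, Scara5 and Pi16 were lower by 0.67, 0.72 and 0.75 log2. Leaving out PBS replicate 2 reduced the 7 calls to 3.

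In the diet experiment bleomycin raised 3 and lowered 4 of the 9, where 48.7% of 18593 tested genes rose, 12.3% fell and 60.9% were called. The median gene was 0.56 log2 higher with bleomycin. Npnt read 21.6, 19.2, 28.0 and 20.7 TPM in PBS lungs and 155, 257, 210 and 241 TPM in bleomycin lungs. This 9.66-fold rise (3.2 log2, SE 0.197, adjusted p = 5.97e-08) stood on a PBS mean of 22.3 TPM, where the PBS means of the water and BT2 experiments were 209 and 238 TPM. Tcf21 read 17.0, 15.1, 19.2 and 16.2 TPM in PBS lungs and 35.0, 47.6, 41.0 and 51.2 TPM with bleomycin (1.31 log2, adjusted p = 1.32e-05), and Dpt rose from 73.9, 56.7, 85.2 and 87.2 TPM to 204, 197, 273 and 258 TPM (1.61 log2, adjusted p = 6.69e-06). Ces1d fell 5.10-fold, from 957, 967, 949 and 1233 TPM to 128, 237, 180 and 260 TPM (-2.39 log2, adjusted p = 6.67e-07). Clec3b fell 2.89-fold (-1.54 log2), Pi16 3.40-fold (-1.58 log2) and Scara5 2.19-fold (-0.74 log2). Inmt, at 456, 397, 432 and 446 TPM in PBS lungs and 252, 434, 274 and 461 TPM with bleomycin, and Gsn were not called at -0.33 and -0.27 log2. With each library centred on its median they were called, at -0.90 log2 (adjusted p = 0.00224) and -0.83 log2 (adjusted p = 8.21e-05).

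Markers of other cells and other fibroblast markers also differed between the PBS and bleomycin lungs of this experiment. Summed endothelial markers were 245 to 395 TPM in its PBS lungs and 2530 to 3360 TPM in its bleomycin lungs, and pan-fibroblast markers 445 to 599 against 2930 to 3230 TPM. Cardiac muscle markers were 832 to 1820 against 43.2 to 86.3 TPM and airway epithelial ones 121000 to 291000 against 25000 to 29500 TPM. Of 22 other alveolar fibroblast markers 20 rose and 1 fell. Their part in the results against PBS was not tested.

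Within the bleomycin lungs the BCAA-free diet raised 8 of the 9 and lowered none, where 4.02% of tested genes rose and 10.1% were called. The median of the 9 was 1.53 log2 against -0.09 over all tested genes. Inmt read 252, 434, 274 and 461 TPM on normal diet and 1588, 1933, 1600 and 1627 TPM on the BCAA-free diet. It rose 4.75-fold (2.29 log2, SE 0.192, adjusted p = 6.82e-05), and every treated lung lay above every untreated one. Clec3b read 60.0, 75.5, 61.8 and 110 TPM on normal diet and 302, 254, 252 and 298 TPM on the BCAA-free diet, a 3.60-fold rise (1.87 log2, SE 0.205, adjusted p = 0.000247). Gsn read 828, 849, 888 and 1021 TPM and 2728, 2699, 2195 and 2899 TPM, a 2.94-fold rise (1.55 log2, SE 0.141, adjusted p = 0.000107). Ces1d reached 544, 630, 574 and 602 TPM, a 2.92-fold rise (1.59 log2, adjusted p = 0.000488), still below its PBS lungs. Tcf21 reached 144, 132, 97 and 119 TPM, a 2.81-fold rise (1.47 log2, SE 0.156, adjusted p = 0.000203). Npnt reached 442, 310, 523 and 393 TPM, a 1.93-fold rise (0.95 log2, adjusted p = 0.01), and Scara5 5.47, 6.63, 5.5 and 6.45 TPM, a 4.17-fold rise (1.53 log2, adjusted p = 0.000646). In each of these genes the groups did not overlap, but the share of all tested genes without overlap was not counted. Dpt, already raised by bleomycin, rose further to 443, 336, 304 and 388 TPM (0.66 log2, adjusted p = 0.0348), a call lost without any of 4 of the 8 lungs, and also when the PBS lungs were left out of the fit (adjusted p = 0.055). Pi16 read 9.40, 16.1, 3.12 and 13.4 TPM and was not called (0.71 log2, adjusted p = 0.255). Without replicate 3, the library that stood apart and the lowest for Pi16, it was called (1.14 log2, adjusted p = 0.00489), and then all 9 were.

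Against PBS lungs, bleomycin with the BCAA-free diet raised 6 of the 9 and lowered Ces1d, where 42.3% of tested genes rose, 12.5% fell and 54.8% were called. Inmt was 3.90-fold and Gsn 2.44-fold above PBS, and Clec3b did not differ by the test (0.33 log2, adjusted p = 0.188). With median centring Scara5 was no longer called (0.35 log2, adjusted p = 0.227). Pi16, not called here (-0.87 log2, adjusted p = 0.0611), was called lower with median centring (-1.31 log2, adjusted p = 0.00696), with the replicate number as a block (adjusted p = 0.0482) and without BCAA-free diet replicate 2 (adjusted p = 0.0215) or 4 (adjusted p = 0.0429).

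Other fibroblast markers moved less uniformly with the diet. Of 22 other alveolar fibroblast markers 6 rose and 1 fell, at a median of 0.46 log2. Cxcl14, a chemokine, fell (-1.42 log2, adjusted p = 0.00622), and Mfap4, Gpc3 and Cdo1 were not called. Of 22 other adventitial markers 4 rose and 7 fell, at a median of -0.08 log2, with Igfbp4, an IGF-binding protein, lower by 0.99 log2 (adjusted p = 0.00968). Of 15 markers of matrix-producing fibrotic fibroblasts 13 fell and none rose, at a median of -1.53 log2. Alveolar type 2 markers summed to 19200 to 26900 TPM on normal diet and 40100 to 59500 TPM on the BCAA-free diet, and 7 of the 8 rose. Cardiac muscle markers summed to 43.2 to 86.3 against 234 to 522 TPM, and 4 of the 5 rose. Their part in the rise of the 9 genes was not tested.

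**Figure D2:**
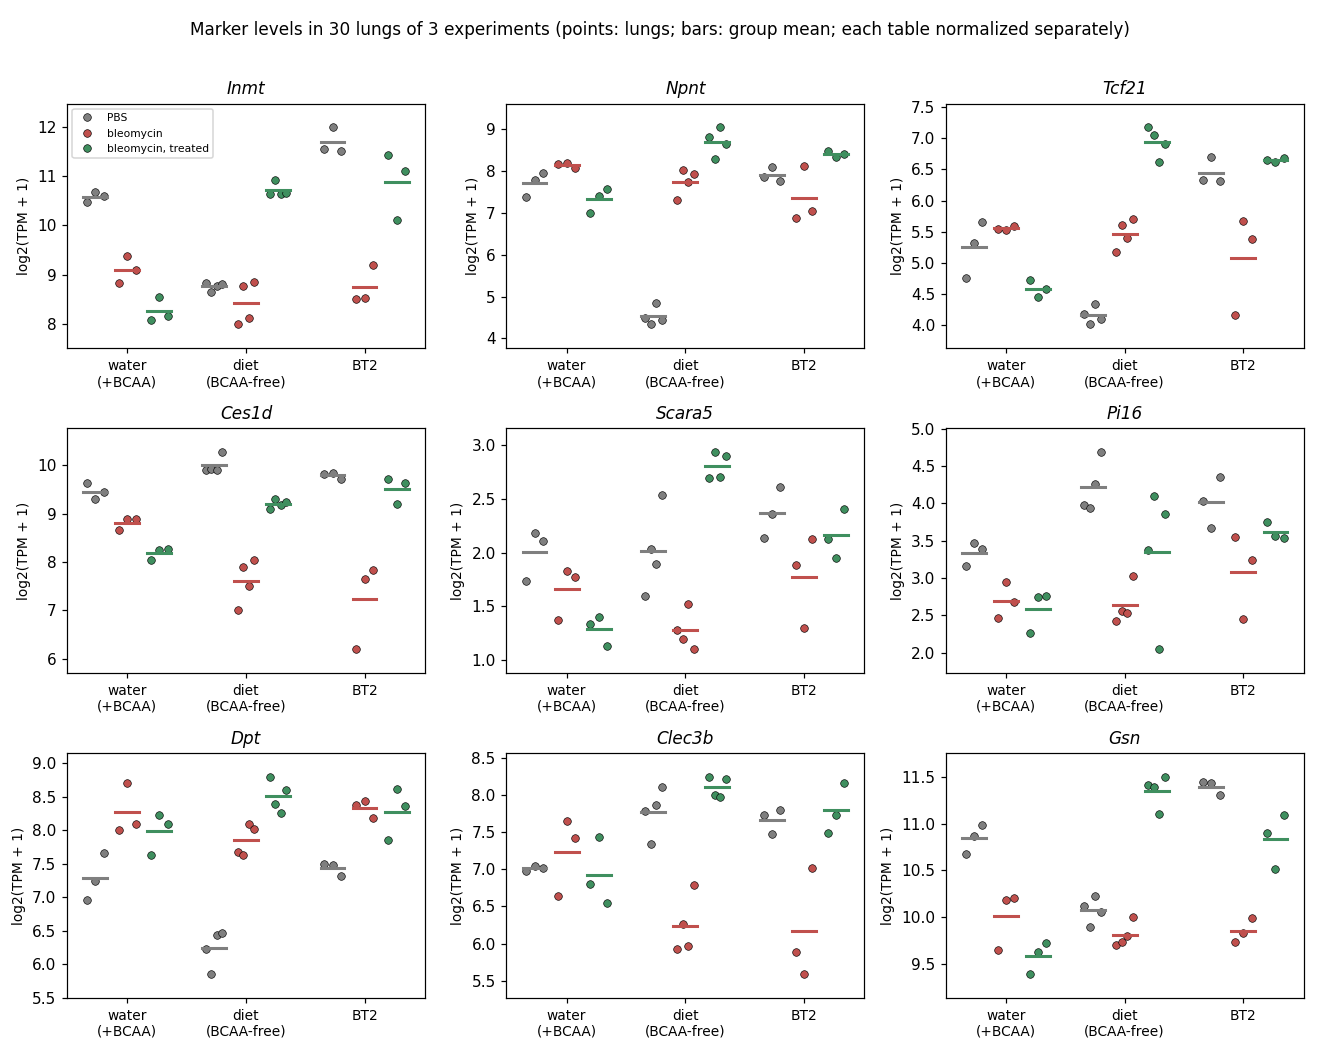
Levels of the 9 genes in 30 lungs as log2(TPM + 1) on the y axis against the experiment on the x axis, with points for lungs, bars for group means, and colours for PBS, bleomycin, and bleomycin with treatment. Inmt lies between 252 and 461 TPM in bleomycin lungs on normal diet and between 1588 and 1933 TPM on the BCAA-free diet, while Scara5 stays low in every group.

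In the BT2 experiment, which used the higher bleomycin dose, bleomycin with DMSO lowered 6 of the 9 and raised Dpt, where 13.3% of 18151 tested genes fell, 17.3% rose and 30.6% were called. The median of the 9 was -1.37 log2 against -0.02. Inmt read 3004, 4096 and 2939 TPM in PBS lungs and 360, 369 and 585 TPM in bleomycin lungs. It fell 7.64-fold (-2.95 log2, SE 0.346, adjusted p = 0.00043). Ces1d, at 907, 913 and 834 TPM in PBS lungs, fell to 72.0, 201 and 227 TPM (-2.56 log2, adjusted p = 0.00124). Gsn, at 2787, 2781 and 2528 TPM, fell to 851, 909 and 1015 TPM (-1.55 log2, adjusted p = 0.000699). Clec3b, at 211, 177 and 222 TPM, fell to 58.3, 47.0 and 128 TPM (-1.50 log2, adjusted p = 0.00865), and Tcf21, at 79.1, 104 and 78.6 TPM, fell to 16.9, 50.1 and 40.8 TPM (-1.37 log2, adjusted p = 0.0124). None of these 5 genes had overlapping groups, though how many of all tested genes had none either was not counted. Pi16 fell by 0.94 log2 (adjusted p = 0.0346), a call lost without PBS replicate 1 or 3 or bleomycin replicate 2. Dpt rose from 180, 177 and 159 TPM to 332, 346 and 291 TPM (0.90 log2, adjusted p = 0.00767). Npnt, at 116, 274 and 130 TPM with bleomycin, overlapped PBS and was not called, and without bleomycin replicate 2 it was called lower (-0.94 log2, adjusted p = 0.00153).

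BT2 raised 6 of the 9 over DMSO and lowered none, where 6.34% of tested genes rose and 11.8% were called. The median of the 9 was 1.06 log2 against 0.12. Inmt read 2780, 1100 and 2217 TPM with BT2, each above the highest DMSO lung, a 4.64-fold rise (2.15 log2, SE 0.346, adjusted p = 0.0109). Ces1d read 837, 590 and 791 TPM, a 4.44-fold rise (2.29 log2, SE 0.370, adjusted p = 0.0109). Clec3b read 179, 212 and 287 TPM, a 2.90-fold rise (1.64 log2, SE 0.332, adjusted p = 0.0204). Tcf21 read 99.3, 96.9 and 102 TPM, a 2.76-fold rise (1.57 log2, SE 0.328, adjusted p = 0.0218). Gsn read 1906, 1460 and 2184 TPM, a 2.00-fold rise (0.98 log2, adjusted p = 0.0202), and Npnt 350, 318 and 338 TPM, a 1.93-fold rise (1.06 log2, adjusted p = 0.0417). All 6 had groups that did not overlap, but the share of all tested genes with such groups was not counted. Dpt, at 230, 390 and 329 TPM, remained near its DMSO level (-0.06 log2, SE 0.194, adjusted p = 0.854), and Scara5 and Pi16 were not called. The calls rest on few lungs: without BT2 replicate 3 none of the 9 was called (adjusted p of the 6 from 0.062 to 0.13), without BT2 replicate 1 there were 2 calls, and a fit of the DMSO and BT2 lungs alone left 1, Inmt.

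Against PBS lungs, bleomycin with BT2 left 1 of the 9 called, Dpt, which was higher (0.84 log2, adjusted p = 0.0369), where 4.13% of tested genes were higher and 5.3% were called. Inmt was at 60.7% of its PBS mean (-0.80 log2, SE 0.346, adjusted p = 0.233), and a missed threshold in 3 against 3 lungs does not show equality. The Dpt call was lost without any of 5 of the 6 lungs.

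Markers of other cells moved with the same lungs. Alveolar type 2 markers summed to 47300 to 60200 TPM in PBS lungs, 2370 to 15800 TPM with bleomycin and DMSO and 43800 to 76600 TPM with BT2; 6 of the 8 fell with bleomycin and all 8 rose with BT2. Alveolar type 1 markers overlapped, at 2980 to 6780 TPM with DMSO and 5940 to 7290 TPM with BT2. Airway epithelial markers summed to 11700 to 24800 TPM with DMSO and 50900 to 107000 TPM with BT2, and pan-fibroblast ones to 3170 to 3730 and 1400 to 2340 TPM. Of 15 fibrotic fibroblast markers 11 fell with BT2 and none rose. Of 22 other alveolar fibroblast markers 6 rose and none fell with BT2, at a median of 0.56 log2, and of 21 tested adventitial ones 3 rose and 3 fell, at a median of -0.14 log2. Cardiac muscle markers summed to 82.9 to 101 TPM with DMSO and 198 to 305 TPM with BT2. Their part in the rise of the markers was not tested.

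As a share of the PBS mean of the same experiment, the markers took 3 patterns. Dpt was above PBS in all bleomycin groups, at 199%, 308% and 188% with bleomycin in the water, diet and BT2 experiments and at 162%, 486% and 184% with the treatment added. Inmt, Ces1d, Gsn, Scara5 and Pi16 were below PBS with bleomycin in each experiment, Inmt at 35.9%, 82.2% and 13.1%. With the treatment added, Inmt was at 20.0% under BCAA water, 390% under the BCAA-free diet and 60.7% under BT2. Npnt, Tcf21 and Clec3b varied between experiments, with Tcf21 at 120%, 259% and 41.3% of PBS after bleomycin and at 60.2%, 728% and 114% with the treatment added. The diet shares divide by PBS lungs that stood apart as a group, with lower summed endothelial and pan-fibroblast markers than the bleomycin lungs of that experiment. How far this sets the diet shares was not tested. In each experiment the bleomycin lungs serve both as the treated arm of bleomycin against PBS and as the control arm of the treatment, and the dose, day and treatment all differ between experiments, so the 3 are set side by side only.

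**Figure D3:**
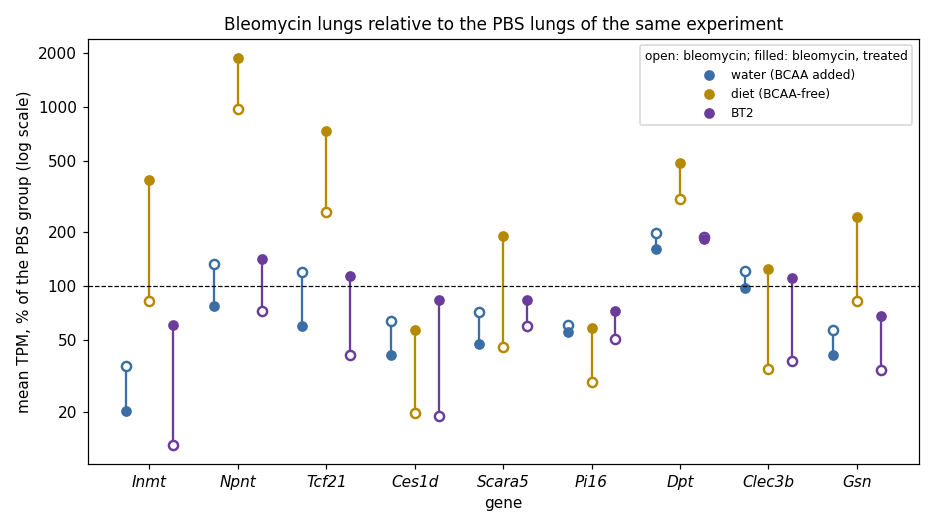
Mean TPM of each gene as a percentage of the PBS mean of its experiment (y axis, log scale; dashed line at 100) for bleomycin alone (open circles) and with the treatment added (filled circles), in 3 experiments by colour. Lines run downwards from open to filled for all 9 genes with BCAA water and upwards for all 9 with the BCAA-free diet, while Dpt stays above 100 throughout. The diet percentages divide by PBS lungs that stood apart as a group.

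**Figure D4:**
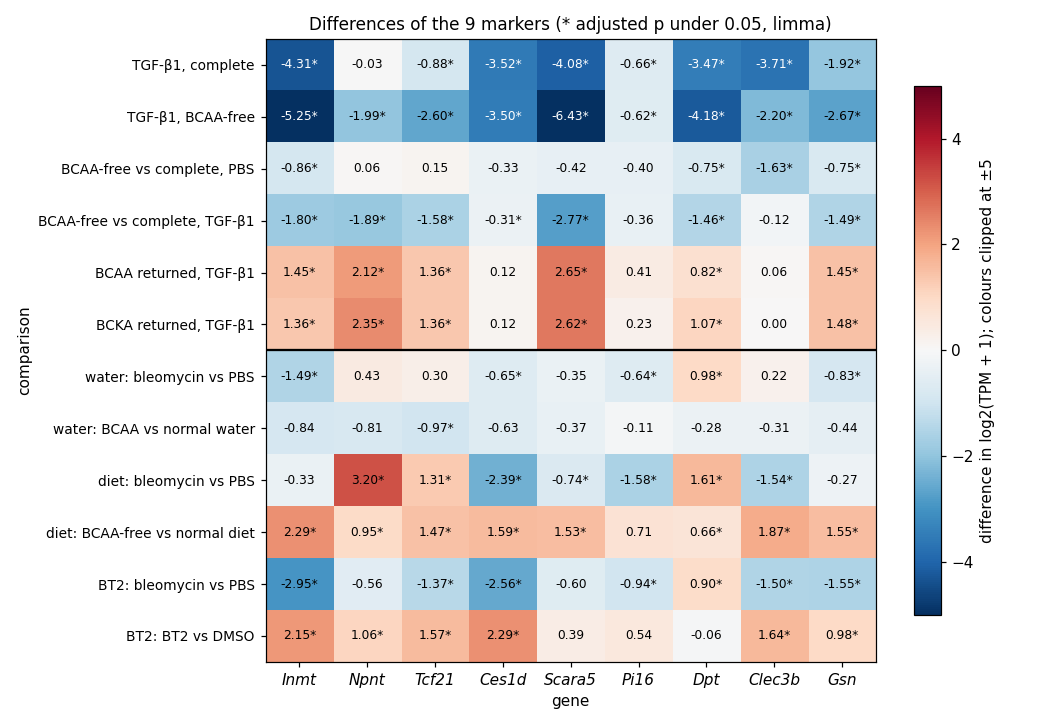
Differences in log2(TPM + 1) of the 9 genes (columns) in 12 comparisons (rows), coloured from lower to higher and clipped at 5 in either direction, with a star where the adjusted p was under 0.05. In the top 2 rows, TGF-β1 against PBS, 8 and 9 genes are starred and lower, and the 8 starred genes with the BCAA-free diet and the 6 with BT2 are higher.

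Profiles nearest to the members over the 30 lungs, after subtracting each experiment's mean, differed from those in culture. Nearest to Npnt was Cldn18 (0.299 log2), a tight-junction gene of alveolar epithelium, and nearest to Tcf21 was Etv5 (0.233 log2), a transcription factor of alveolar type 2 cells. Etv5 averaged 39.8 TPM in diet-experiment bleomycin lungs and 82.2 TPM with the BCAA-free diet, and 31.9 TPM with DMSO and 87.2 TPM with BT2. Nearest to Dpt was Wnt2 (0.284 log2), a ligand made by alveolar fibroblasts, and nearest to Gsn was Tnxb (0.287 log2), a tenascin of connective tissue. Atp7b lay nearest to Ces1d (0.275 log2), Pi16's nearest was Sod1 (0.338 log2), Scara5's was Smoc1 (0.339 log2), Inmt's was Colq (0.409 log2) and Clec3b's was AU021092 (0.417 log2). The libraries share experiment and cell make-up, so these distances are descriptions only.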

How the data were processed

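RNA from 24 fibroblast cultures and 30 mouse lungs was sequenced from poly(A) libraries made with oligo(dT), per the labels' protocols. The authors deposited TPM values per gene in 4 tables, 1 for the cultures and 1 for each lung experiment. Per the submitters' processing notes the build was mm39 and the tools included HISAT2, featureCounts of Subread, DESeq2, Trim Galore and FastQC. No counts were used, so depth is unknown. The labels' extraction text mentions heart tissue although the samples are labelled lung. Each table carries its own batch label, so no comparison crosses batches.

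Lung rows without a symbol held 0.212% to 0.367% of TPM and were dropped, and rows sharing a symbol (27 to 29 per lung table) were summed. A gene was tested where 3 or more libraries of its table reached 1 TPM. Differences in log2(TPM + 1) were fitted over all groups of a table by limma 3.58.1 under R 4.3.3, letting the variance prior follow the mean level, and p-values, two-sided, were adjusted by Benjamini-Hochberg over all tested genes with a threshold of 0.05. The scripts were tested on simulated data. The 9 genes were tested and counted in every comparison, but the text does not name each of them in all comparisons. From each other list at most the 4 genes of highest mean TPM in the table were eligible to be named. The list genes printed were picked among these after their values were seen. Likeness was the root mean square difference of centred log2(TPM + 1). Members needed an SD of at least 0.5, and the non-member genes compared needed a mean of at least 5 TPM in some group. The 9 genes and all lists were chosen with earlier results of these data known. The comparison of BCKA with BCAA in PBS cultures and the repeat search were added after seeing the data. Alternatives were a pseudocount of 0.1, no filter, median centring, only the groups compared, a replicate block and each library left out.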

Additional observations from a re-analysis of the deposited data

Results flagged for a closer look

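For each gene in each group of 4 lungs, the lowest and highest values were compared with their neighbours by Dixon's ratio. It flags about 1 in 20 such sets by chance. Of 27 such sets tested, which share lungs between genes, 2 passed its 95% critical value. These were Ces1d in replicate 4 of the diet-experiment PBS lungs, at 1233 TPM (ratio 0.937), and Inmt in replicate 2 of the BCAA-free diet lungs, at 1933 TPM (ratio 0.886). Both lay above the rest of their group.

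The TGF-β1 response differed between BCAA-free and complete medium by the interaction test for 7 of the 9 genes. Of all 13084 tested genes 47.6% were called in this test, 18.4% with a lower and 29.2% with a higher response. The difference was -0.94 log2 for Inmt, -1.96 log2 for Npnt, -1.72 log2 for Tcf21, -2.35 log2 for Scara5, -0.71 log2 for Dpt and -0.74 log2 for Gsn. For Clec3b it was 1.51 log2, with TGF-β1 libraries at or near 0 TPM in both media.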

How the results depend on the processing

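The Ces1d interaction, not called at 0.02 log2, was called at -1.37 log2 with a pseudocount of 0.1, the only sign change in a result called in either fit. Results called in neither fit changed sign in 37 further fits, among them Npnt with TGF-β1 in complete medium (-0.03 log2, 0.16 log2 with median centring). A pseudocount of 0.1 changed the number of the 9 called from 4 to 2 for BCAA-free against complete medium at rest, from 3 to 1 for BCAA returned at rest, from 1 to 0 for BCKA returned at rest, from 4 to 2 for BCKA against BCAA at rest and from 1 to 0 for BCAA water, while Pi16 gained a call for BCAA-free against complete medium (-1.11 log2) and for BCAA returned (1.21 log2) under TGF-β1. Without the filter the counts were 0 for BCAA water, 4 in place of 7 for bleomycin with BCAA water against PBS, 2 in place of 6 for BT2 and 0 in place of 1 for bleomycin with BT2 against PBS. Median centring gave 2 for BCAA water and 0 for bleomycin with BT2 against PBS. Fitting only the groups compared gave 0 for BCKA returned at rest, 1 for BT2 and 2 for bleomycin with BT2 against PBS. Leaving out each library gave 1 to 2 for BCAA returned at rest, 3 to 5 for bleomycin in the water experiment (3 without PBS replicate 1), 0 to 1 for BCAA water, 3 to 7 for bleomycin with BCAA water against PBS, 0 to 6 for BT2 (0 without BT2 replicate 3) and 0 to 1 for bleomycin with BT2 against PBS. The cause was not tested.

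Over all tested genes, a pseudocount of 0.1 gave 40 in place of 119 calls for BCAA-free against complete medium at rest, 13 in place of 34 for BCAA returned, 55 in place of 85 for BCKA against BCAA and 124 in place of 207 for BCAA water. Only the groups compared gave 21 for BCAA returned, 51 in place of 87 for BCKA returned and 226 for BCKA against BCAA at rest; under TGF-β1 it gave 4795 in place of 7895 for BCAA-free against complete medium and 96 in place of 35 for BCKA against BCAA. It gave 38 for BCAA water, 1160 in place of 1885 for the BCAA-free diet, 190 in place of 2133 for BT2 and 2612 in place of 962 for bleomycin with BT2 against PBS. No filter gave 45 for BCAA water, 819 for BT2 and 404 for bleomycin with BT2 against PBS. Median centring gave 348 for BCAA water and 3315 for BT2.

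Deviations of libraries with the same replicate number had a median correlation of 0.01 in the cultures. It was -0.05, -0.01 and 0.03 in the water, diet and BT2 lungs. The culture correlations ran from -0.49 to 0.54, and 29 of 84 pairs were over 0.1. These medians therefore do not settle whether same-numbered cultures share an origin. With the replicate block, BCAA water had 0 of the 9 called and 64 of all genes, while Pi16 gained a call for BCAA returned under TGF-β1 (0.41 log2, adjusted p = 0.0451) and for bleomycin with BCAA-free diet against PBS (-0.87 log2, adjusted p = 0.0482), and no other call of the 9 changed.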
